A study of Mus musculus with 2 samples.

Results

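The TAM receptors and their ligands are 5 genes: the receptors Axl, Mertk and Tyro3 and the ligands Gas6 and Pros1. They were taken by name from the gene rows of both count tables, which together held 36547 gene symbols, and all 5 had UMIs in both libraries. The study prepared single-cell RNA-seq libraries from dissociated testes of C57BL/6 mice at 12 weeks of age, 1 library of wild-type (WT) testis and 1 library of Alkbh5-/- (KO) testis, which lacks the RNA m6A demethylase ALKBH5. Heterozygotes were crossed to obtain the homozygous mice. The methods describe testes of 3 mice per genotype, whereas the abstract and introduction of the study speak of 1 mouse per genotype, so the number of mice is uncertain. Each genotype is represented here by a single table without a record of which cell came from which mouse. The study examined ligand and receptor signals between testis cells with CellChat. It reported that Leydig cells, relative to WT, also showed features of secreting PROS and GAS signals, which are named after Pros1 and Gas6. The comparison here is which cells carried the transcripts of both ligands and of their receptors and how their levels compared between WT and KO.

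TAM receptors are transmembrane tyrosine kinases that act in the clearance of dead cells and in the damping of innate immune signalling. Their ligands are vitamin K-dependent secreted proteins that bridge phosphatidylserine, exposed on dying cells, to a receptor on the engulfing cell: GAS6 activates all members of the receptor family, and protein S, the product of Pros1, activates TYRO3 and MERTK and is also an anticoagulant of blood plasma. In the testis, Sertoli cells engulf dying germ cells and the residual bodies shed by spermatids, Mertk is a receptor known for this task, and male mice without any of the receptors become infertile.

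Axl lies on mouse chromosome 7 (25757273 to 25788705, minus strand) and its longest coding transcript has 20 exons. Mertk lies on chromosome 2 (128698956 to 128802894, plus strand, 19 exons), Tyro3 on the same chromosome (119797733 to 119818104, plus strand, 20 exons), Gas6 on chromosome 8 (13465374 to 13494490, minus strand, 15 exons) and Pros1 on chromosome 16 (62854307 to 62929346, plus strand, 15 exons). These positions are those of the GENCODE annotation of GRCm38, found by symbol. Mertk overlaps the antisense gene Gm14011 and Gas6 overlaps the end of Tmem255b on the opposite strand, and the sources used here do not say whether reads were counted by strand. Gm14011 was counted once, in the KO library, as was the small RNA gene Gm23172 inside Mertk. Tmem255b was counted in spermatids, but in Leydig-like cells only 3 times, all in KO, so it was near 0 in the class that held most Gas6 UMIs.

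The 5 genes were highest in somatic or immune cell classes, and the 100 bases before each transcription start are shown so that their upstream sequences can be compared. The sequences are from RefSeq on GRCm38.p6, 5′ to 3′ on the strand of the gene, with the GC box GGGCGG, searched on both strands, in capitals. The starts are those of RefSeq and can differ from the GENCODE starts above. The Tyro3 window lies inside the GENCODE span of that gene.
Axl promoter (chr7:25788734-25788833, minus strand): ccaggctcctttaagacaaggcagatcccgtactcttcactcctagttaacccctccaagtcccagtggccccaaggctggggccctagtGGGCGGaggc
Mertk promoter (chr2:128698815-128698914, plus strand): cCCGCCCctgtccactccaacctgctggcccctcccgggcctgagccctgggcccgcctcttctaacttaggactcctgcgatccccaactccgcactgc
Tyro3 promoter (chr2:119799414-119799513, plus strand): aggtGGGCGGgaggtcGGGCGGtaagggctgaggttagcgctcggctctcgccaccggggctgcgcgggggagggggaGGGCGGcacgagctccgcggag
Gas6 promoter (chr8:13494536-13494635, minus strand): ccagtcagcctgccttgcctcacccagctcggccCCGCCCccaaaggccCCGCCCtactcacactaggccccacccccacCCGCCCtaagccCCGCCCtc
Pros1 promoter (chr16:62854207-62854306, plus strand): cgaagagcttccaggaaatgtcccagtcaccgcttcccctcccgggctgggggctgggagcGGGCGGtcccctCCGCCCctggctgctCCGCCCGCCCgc
Each of the 5 windows held at least 1 GC box: 1 in Axl and in Mertk, 3 in Tyro3 and 4 in Gas6 and in Pros1. Among 32851 windows of the same length before other RefSeq starts, 24.7% held it, and their median GC content was 55%, against 61% to 77% in the 5 windows. The AP-1 motif TGANTCA, the steroidogenic factor motif CAAGGTCA and the E-box CACGTG were in none of the 5, and in 2.73%, 0.447% and 3.17% of all windows. A match is a description of the letters and not of a binding site.

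The WT library held 5756 cells and 80283221 UMIs and the KO library 7012 cells and 82056760 UMIs, with medians of 10906 and 9118 UMIs per cell. Alkbh5 itself was counted 607 times in WT and 5 times in KO. A total of 45 barcode sequences occurred in both libraries. Cells were clustered without the 5 genes and the clusters were named from marker genes, so class names are written as Leydig-like and so on, and a difference from the classes of the study can come from these rebuilt names. The level of a gene is its UMI sum in a class scaled to 1000000 UMIs (CPM) and has an exact Poisson 95% interval, while shares of cells have exact Clopper-Pearson and ratios between libraries exact conditional 95% intervals. With 1 library per genotype there was no replicate and no test, and all these intervals cover counting error only.

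Axl encodes the receptor that binds GAS6 most tightly. In the KO library it had 331 UMIs, of which 243 were in Sertoli-like cells (73.4%, 68.3% to 78.1%), 54 in Leydig-like and 19 in macrophage-like cells. Its level was 51.5 CPM in KO Sertoli-like cells (45.2 to 58.4), 24.4 CPM in KO macrophage-like cells (14.7 to 38.1) and 5.25 CPM in KO Leydig-like cells (3.95 to 6.85), and the intervals of these 3 classes did not overlap. In KO cells with at most 5% of their UMIs from germ cell genes, a subset chosen after seeing the data, the Sertoli-like (60.9 CPM, 53.1 to 69.4) and macrophage-like levels (45.5 CPM on 12 UMIs, 23.5 to 79.5) did overlap. The WT library had only 27 UMIs of Axl, 11 in Sertoli-like, 7 in Leydig-like and 2 in macrophage-like cells, at 22.8 CPM (11.4 to 40.9), 6.84 CPM (2.75 to 14.1) and 6.40 CPM (0.775 to 23.1), and here the classes overlapped. In elongating spermatid-like cells, which should lack the receptor, 0 of 2428 WT and 0 of 1322 KO cells had a UMI of Axl, which at a floor of 3 cells allows shares of cells with a UMI of up to 0.124% and 0.227%, against 36.9% of KO Sertoli-like cells (175 of 474). The median depth was 8368 UMIs in the KO spermatid-like cells and 9147 in the KO Sertoli-like cells, and with every cell thinned to 5000 UMIs the KO Sertoli-like share was 21.9% (102 cells).

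Mertk encodes the receptor best known for the uptake of apoptotic cells by macrophages and of photoreceptor outer segments by the retinal pigment epithelium. It was the most widely spread of the receptors over somatic classes. Of its 317 UMIs in KO, 143 were in Sertoli-like (45.1%, 39.5% to 50.8%), 132 in Leydig-like (41.6%, 36.2% to 47.3%), 25 in macrophage-like and 4 in endothelial-like cells. By level, the KO macrophage-like (32.1 CPM, 20.8 to 47.4), Sertoli-like (30.3 CPM, 25.5 to 35.7) and endothelial-like cells (25.3 CPM, 6.90 to 64.8) did not differ beyond counting error. Leydig-like cells were lower than the macrophage-like and Sertoli-like cells, at 12.8 CPM (10.7 to 15.2). In WT only 20 UMIs were counted, 9 in Leydig-like, 5 in macrophage-like and 2 in Sertoli-like cells, and no order could be read from 16.0 CPM (5.19 to 37.3) in macrophage-like, 8.79 CPM (4.02 to 16.7) in Leydig-like and 4.15 CPM (0.503 to 15) in Sertoli-like cells. Elongating spermatid-like cells had 1 UMI in WT and 0 in KO.

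Tyro3 encodes the receptor known mainly from the nervous system and from Sertoli cells. Sertoli-like and spermatogonia-like cells together held nearly all its UMIs in both libraries. In KO, 264 of 326 UMIs were in Sertoli-like cells (81.0%, 76.3% to 85.1%) and 47 in spermatogonia-like cells (14.4%, 10.8% to 18.7%), at 55.9 CPM (49.4 to 63.1) and 5.59 CPM (4.11 to 7.43). In WT, 12 of 23 UMIs were in Sertoli-like and 10 in spermatogonia-like cells, at 24.9 CPM (12.9 to 43.5) and 5.91 CPM (2.84 to 10.9). Both libraries therefore gave the same order, Sertoli-like above spermatogonia-like, without overlap of the intervals. The level in spermatogonia-like cells did not differ between the libraries beyond counting error (log2 KO over WT -0.08, -1.09 to 1.07). Leydig-like cells had 1 UMI in WT and 3 in KO, macrophage-like cells 0 and 1, so that Tyro3 set the Sertoli-like class apart from the classes that shared Axl and Mertk with it.

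Gas6, the first ligand, was carried by all 3 large somatic classes. In WT, 148 of 238 UMIs were in Leydig-like (62.2%, 55.7% to 68.4%), 59 in Sertoli-like (24.8%, 19.4% to 30.8%) and 23 in macrophage-like cells (9.66%, 6.23% to 14.1%). In KO, 1330 of 1967 UMIs were in Leydig-like (67.6%, 65.5% to 69.7%), 491 in Sertoli-like (24.96%, 23.1% to 26.9%) and 76 in macrophage-like cells (3.86%, 3.06% to 4.81%). The Leydig-like and Sertoli-like shares overlapped between the libraries and the macrophage-like share was lower in KO without overlap. Germ cell classes together held 3.36% of the UMIs in WT (8 UMIs) and 3.36% in KO (66 UMIs). The levels were 145 CPM (122 to 170) in WT and 129 CPM (123 to 137) in KO Leydig-like cells, 122 CPM (93.2 to 158) and 104 CPM (95 to 114) in Sertoli-like cells, and 73.6 CPM (46.6 to 110) and 97.7 CPM (77.0 to 122) in macrophage-like cells. A UMI of Gas6 was found in 67.7% of WT (63 of 93) and 53.8% of KO Leydig-like cells (630 of 1172), with median depths of 9977 and 7874 UMIs, and in 0.0824% of WT and 0.303% of KO elongating spermatid-like cells. In cells thinned to 5000 UMIs the Leydig-like shares were 46.2% and 39.2%.

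Pros1, the second ligand, was carried by the same somatic classes and also by meiotic and early haploid germ cells. Leydig-like cells had 115 UMIs in WT and 913 in KO, at 112 CPM (92.8 to 135) and 88.8 CPM (83.1 to 94.8). Sertoli-like cells had 29 and 493 UMIs, at 60.2 CPM (40.3 to 86.5) and 104 CPM (95.4 to 114), but in WT a single cell held 15 of the 29. Macrophage-like cells had 18 and 28 UMIs, at 57.6 CPM (34.1 to 91.0) and 36.0 CPM (23.9 to 52.0), and the 24 KO endothelial-like cells had 9 UMIs.

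**Figure D1:**
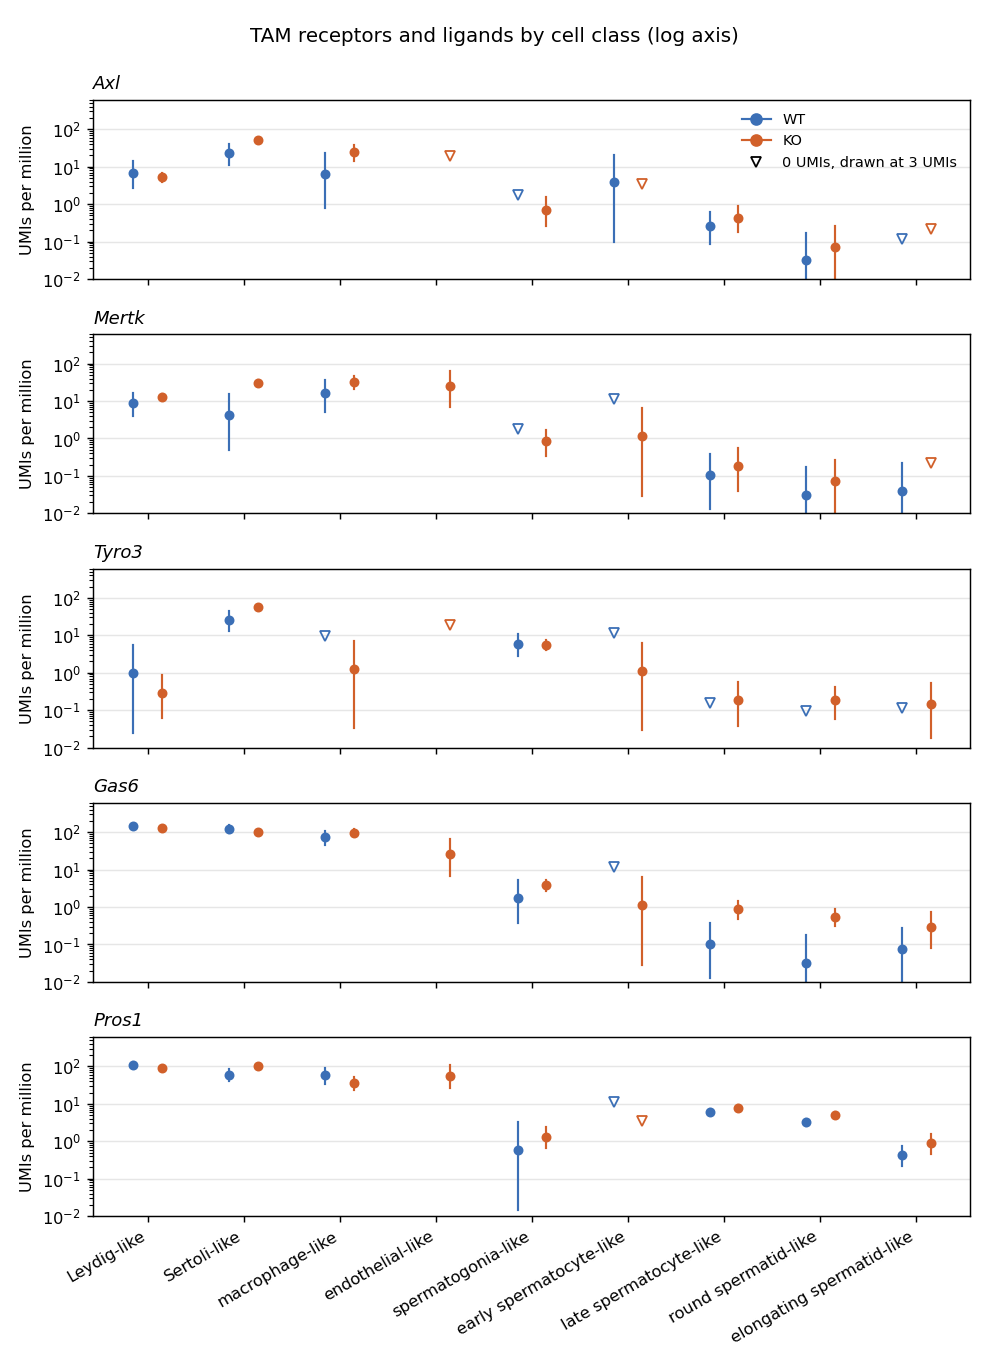
Level of each gene in CPM (log axis, intervals below 0.01 not drawn) in the 9 cell classes of the WT (blue) and KO (orange) library; points are class sums, vertical lines exact Poisson 95% intervals, and open triangles mark classes without a UMI, drawn at the level of 3 UMIs. Tyro3 stood high in Sertoli-like cells alone (24.9 and 55.9 CPM) and Pros1 was the only gene of the 5 above 3 CPM in late spermatocyte-like and round spermatid-like cells of both libraries. The single WT endothelial-like cell is not drawn.

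The germ cell level of Pros1 was low and differed between classes. Late spermatocyte-like cells had 117 UMIs in WT (6.15 CPM, 5.09 to 7.37) and 124 in KO (7.79 CPM, 6.48 to 9.29), and round spermatid-like cells had 103 (3.24 CPM, 2.64 to 3.93) and 139 (5.10 CPM, 4.29 to 6.02). Elongating spermatid-like cells were far lower, with 11 UMIs in WT (0.428 CPM, 0.214 to 0.766) and 12 in KO (0.879 CPM, 0.454 to 1.54). Spermatogonia-like cells were low as well, with 1 and 11 UMIs (0.591 and 1.31 CPM), and early spermatocyte-like cells had 0 UMIs in both, which at a floor of 3 UMIs allows up to 11.4 CPM in WT and 3.43 CPM in KO.

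By cluster, the 3 late spermatocyte-like clusters held 5.53 to 7.01 CPM in WT and 6.48 to 8.56 CPM in KO. Of the round spermatid-like clusters, numbers 1 and 4 held 4.57 and 3.72 CPM in WT and 5.80 and 7.26 CPM in KO, number 11 held 1.98 CPM in WT and 4.55 CPM in KO, and number 10, which was led by Cst13 and Fam71b, held 1.15 CPM in WT and 0.842 CPM in KO. The 4 elongating spermatid-like clusters stayed at or below 0.708 CPM in WT and 1.22 CPM in KO. By class, the level in both libraries was lower in round spermatid-like than in late spermatocyte-like cells and lower again in elongating spermatid-like cells, while single clusters of the first 2 classes overlapped in KO. With cells thinned to 5000 UMIs, 3.57% of WT and 3.08% of KO late spermatocyte-like cells had a UMI of Pros1, against 0.165% and 0.318% of elongating spermatid-like cells.

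Gas6 did not share this germ cell pattern. Late spermatocyte-like cells held Gas6 at 0.0727% (WT) and 0.680% (KO) of its level in Leydig-like cells, and Pros1 at 5.48% and 8.77%, so the ligands did not keep their Leydig-like ratio there. Of all Pros1 UMIs, 58.9% in the WT library (232 of 394, 53.8% to 63.8%) lay in germ cell classes, whereas in the KO library, which held more somatic cells, the share was 16.5% (286 of 1729, 14.8% to 18.4%).

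**Figure D2:**
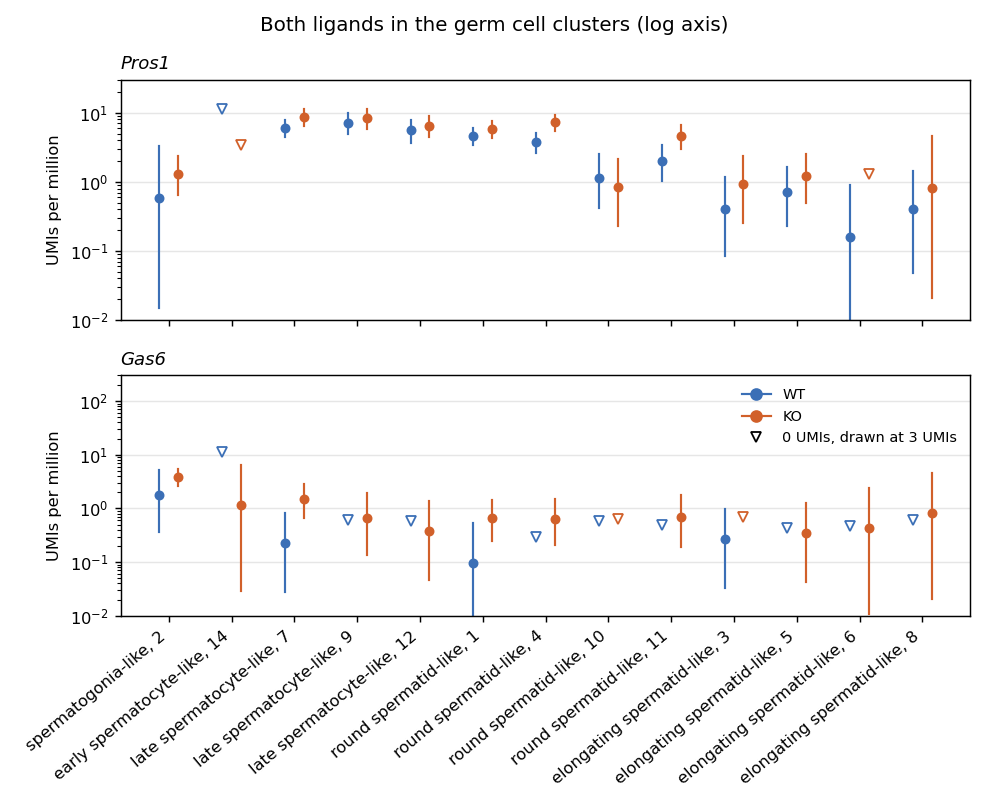
Level of Pros1 (top) and Gas6 (bottom) in CPM (log axis) in each germ cell cluster of WT (blue) and KO (orange), named by class and cluster number, in an arbitrary order within a class; lines are exact Poisson 95% intervals and open triangles clusters without a UMI, drawn at 3 UMIs. Pros1 lay at 5.53 to 8.56 CPM in the late spermatocyte-like clusters, where Gas6 reached at most 1.48 CPM.

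In the whole libraries all 5 genes were much higher in KO. Axl was 0.336 CPM in WT and 4.03 CPM in KO (12.0-fold), Mertk 0.249 and 3.86 CPM (15.5-fold) and Tyro3 0.286 and 3.97 CPM (13.9-fold). Gas6 was 2.96 and 24.0 CPM (8.09-fold) and Pros1 4.91 and 21.1 CPM (4.29-fold). The cell classes that carried them were also more frequent: Leydig-like cells made up 1.62% of WT and 16.7% of KO cells, Sertoli-like cells 0.869% and 6.76%, macrophage-like cells 0.452% and 1.14%.

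When the KO class levels were weighted by the share of UMIs that each class had in the WT library, most of the excess was gone. Gas6 came to 3.26 CPM (1.10-fold of WT) and Pros1 to 6.08 CPM (1.24-fold), so little of the whole-library difference of the ligands was left at equal class make-up. The receptors came to 0.619 CPM for Axl (1.84-fold), 0.568 CPM for Mertk (2.28-fold) and 0.630 CPM for Tyro3 (2.20-fold). These values use class levels over all cells, where the Sertoli-like log2 ratio of KO over WT was 1.17 for Axl and 1.17 for Tyro3. In Sertoli-like cells with at most 5% germ cell genes it was -0.20 and -0.13, so the remaining folds do not show a rise within Sertoli-like cells. Shares of cells in a dissociated tissue are shares of what was captured and do not measure cell numbers in the testis.

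**Figure D3:**
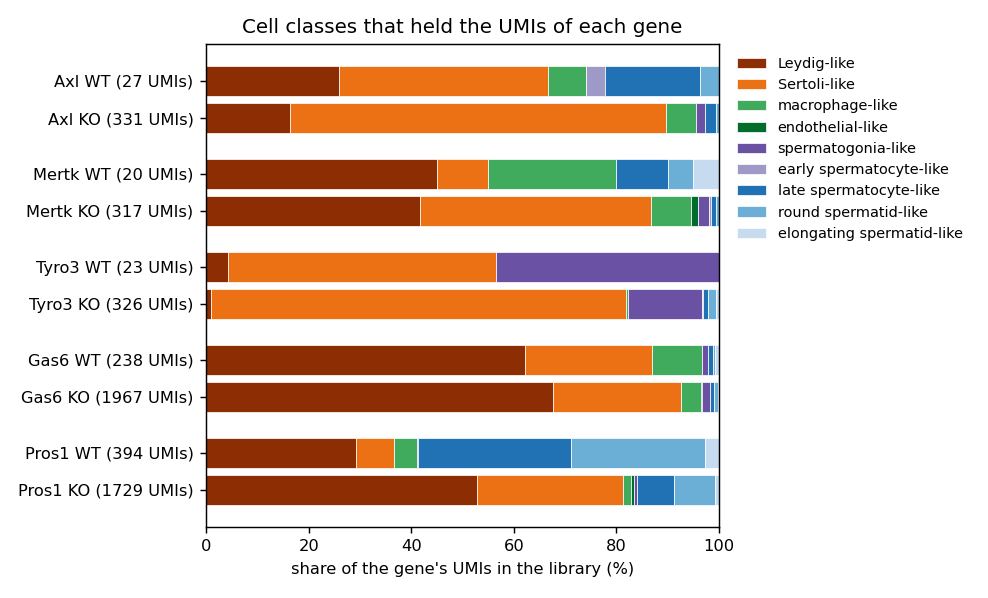
Share of the UMIs of each gene (horizontal axis, percent) that each cell class held, with 1 bar per gene and library and the number of UMIs in brackets. Sertoli-like cells held 73.4% of Axl and 81.0% of Tyro3 in KO, Leydig-like cells 62.2% and 67.6% of Gas6 in WT and KO, and germ cell classes 58.9% of Pros1 in WT.

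Within Leydig-like cells, the steroid-producing cells of the interstitium, neither ligand was higher in KO. Gas6 was 145 CPM in WT and 129 CPM in KO (log2 KO over WT -0.16, -0.41 to 0.09), a difference within counting error. Pros1 was 112 and 88.8 CPM (-0.34, -0.62 to -0.05), lower in KO by more than counting error but by less than the 2-fold size criterion used here. The PROS and GAS signals of the study came from CellChat, a different measure from these RNA levels, and were not tested here. Axl (6.84 and 5.25 CPM, -0.38, -1.52 to 1.00) and Mertk (8.79 and 12.8 CPM, 0.55, -0.42 to 1.71) did not differ beyond counting error. No member of the 3 with enough cells passed the criterion, which called 3.25% of all genes with enough cells as higher and 10.3% as lower in KO.

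The same held in the Leydig-like cells with at most 5% of their UMIs from germ cell genes, 81 in WT and 1078 in KO, a subset chosen after seeing the data. Gas6 was 154 and 138 CPM there (-0.17, -0.43 to 0.11) and Pros1 129.5 and 94.1 CPM (-0.46, -0.76 to -0.15). No member passed the criterion, which called 3.96% and 4.63% of genes there. When somatic cells were clustered again on their own, 34 of the 93 WT Leydig-like cells fell in a sub-cluster led by kallikrein genes and 10 in a sub-cluster led by Cxcl10 and Cyp21a1, whereas of the 1172 KO cells 277 and 505 did. Gas6 in these sub-clusters was 123 and 213 CPM in WT and 157 and 124 CPM in KO, so the class totals stand for mixtures of unlike make-up. The 16 Leydig markers showed no common shift, with a median log2 KO over WT of 0.00, 8 of 16 higher in KO and a range of -1.38 to 1.14.

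Within Sertoli-like cells, all 3 receptors and Pros1 were higher in KO when every cell was counted. Axl was 22.8 CPM in WT and 51.5 CPM in KO (log2 1.17, 0.31 to 2.19), Mertk 4.15 and 30.3 CPM (2.87, 0.99 to 5.93) and Tyro3 24.9 and 55.9 CPM (1.17, 0.34 to 2.14). Pros1 was 60.2 and 104 CPM (0.79, 0.25 to 1.39), and Gas6 was 122 and 104 CPM (-0.24, -0.63 to 0.18). The 3 receptors passed the size criterion, a UMI in at least 10% of cells in either genotype and a CPM ratio of at least 2, but so did 40.6% of the 8784 genes with enough cells in this class, and 18.0% were lower in KO by the same criterion.

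The WT Sertoli-like cells carried much germ cell RNA. When somatic cells were clustered again, most of the 50 WT cells fell in sub-clusters named after spermatids. These were 13 and 20 cells in sub-clusters named elongating spermatid and 2 in one named round spermatid. Of the 474 KO cells, 61, 20 and 12 fell in the same sub-clusters. Germ cell genes were those over 5 times higher in germ than in somatic clusters. They made up a median of 7.98% of the UMIs of the WT cells, against 1.31% in the KO cells. Elongating spermatid-like cells themselves had medians of only 10.4% (WT) and 12.7% (KO), so this share understates spermatid RNA. The 20 markers of elongating spermatids summed to 160122 CPM in the WT cells and to 35182 CPM in the KO cells. These were 58.9% and 14.5% of their level in elongating spermatid-like cells of the same library. Of 20 Sertoli markers, 18 could be compared, and the KO level exceeded the WT level for each of the 18 (median log2 1.34). The receptors thus differed in the same direction as the markers of the class itself.

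In the 15 WT and 377 KO Sertoli-like cells with at most 5% germ cell genes, the excess of Axl and Tyro3 in KO was not seen. Axl had 10 UMIs in WT (69.7 CPM) and 222 in KO (60.9 CPM), a log2 ratio of -0.20 (-1.10 to 0.88), and Tyro3 had 10 (69.7 CPM) and 232 (63.6 CPM), a ratio of -0.13 (-1.04 to 0.95). Mertk, with 2 UMIs in WT (13.9 CPM) and 132 in KO (36.2 CPM), kept its direction but with an interval that included equal levels (1.38, -0.51 to 4.44). The markers of the class had a median log2 of 0.15 in these cells, 14 of 18 higher in KO, and elongating spermatid markers summed to 11177 CPM in WT and 7050 CPM in KO.

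Gas6 was lower in KO in these cells. It had 49 UMIs in the 15 WT cells (342 CPM) and 446 UMIs in the 377 KO cells (122 CPM), a log2 ratio of -1.48 (-1.91 to -1.03). A UMI of Gas6 was found in 13 of 15 WT cells (86.7%, 59.5% to 98.3%) and in 187 of 377 KO cells (49.6%, 44.4% to 54.8%), at median depths of 9519 and 9168 UMIs, and no WT cell had more than 7. In this subset 13.4% of 8404 genes were lower in KO by the size criterion and 12.4% higher, Gas6 among the former and Mertk among the latter. Pros1 was 174 CPM in WT (25 UMIs, 15 of them in a single cell) and 123 CPM in KO (449 UMIs), a ratio of -0.50 (-1.08 to 0.14).

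In the remaining cells, with over 5% germ cell genes (35 in WT, 97 in KO), the members were lower in both libraries: Axl was 2.96 CPM in WT and 19.6 CPM in KO, Tyro3 5.91 and 29.8 CPM, Gas6 29.6 and 41.9 CPM. Sertoli markers summed to 3139 CPM in these WT cells and 11044 CPM in these KO cells, against 34146 and 35710 CPM in the cells with little germ cell RNA. Elongating spermatid markers stood at 82.1% (WT) and 53.9% (KO) of their level in elongating spermatid-like cells. The part of the germ cell RNA in the ratios over all cells was not tested otherwise.

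Clustering the somatic cells again gave 15 WT and 378 KO Sertoli-like cells and the same values for the WT cells. The KO cells fell in 3 sub-clusters, and their members differed. In the sub-cluster of 196 cells led by Gpr55 and that of 154 cells led by Aqp8, Gas6 was 124 and 141 CPM and Pros1 94.8 and 174 CPM. In the remaining one, of 27 cells, led by Wfdc18, Gas6 and Pros1 were both 12.98 CPM (3 UMIs each), whereas Axl (30.3 CPM), Mertk (34.6 CPM) and Tyro3 (60.6 CPM) were not near 0. The 3 WT cells of the Gpr55 sub-cluster held 16 UMIs of Gas6 and the 12 of the Aqp8 sub-cluster held 33, so the high WT level was in both.

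**Figure D4:**
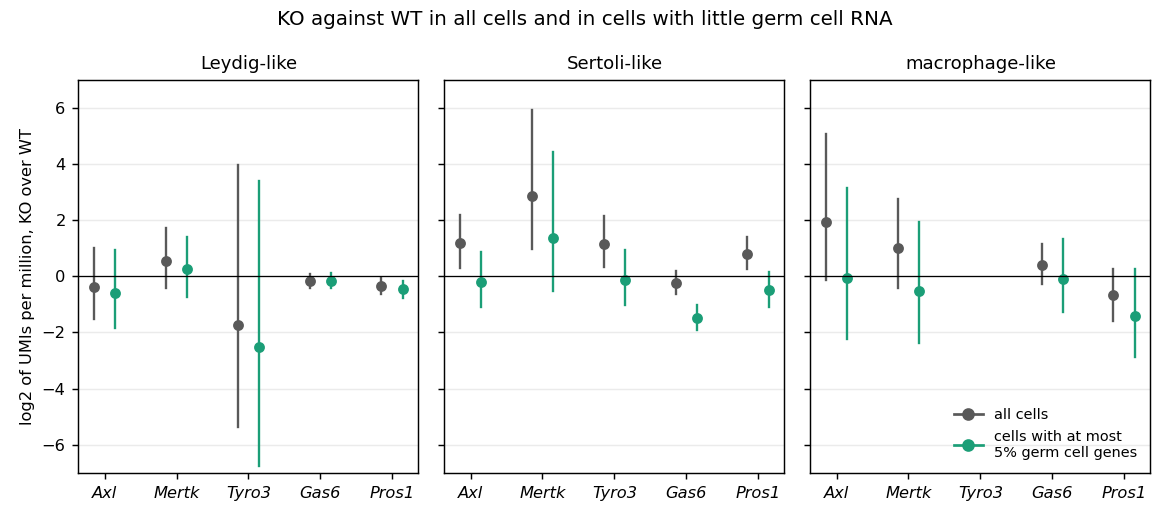
Log2 ratio of the level in KO over that in WT (vertical axis) for each gene in Leydig-like, Sertoli-like and macrophage-like cells, with exact conditional 95% intervals, over all cells (grey) and over cells with at most 5% of their UMIs from germ cell genes (green); a gene without a UMI in a library is not drawn. In Sertoli-like cells Axl and Tyro3 went from 1.17 to -0.20 and -0.13, and Gas6 from -0.24 to -1.48.

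Within macrophage-like cells, counts were too few to place the members. For Axl, 2 WT and 19 KO UMIs gave 6.40 and 24.4 CPM (log2 1.93, -0.12 to 5.08), and for Mertk 5 and 25 gave 16.0 and 32.1 CPM (1.007, -0.40 to 2.75). Both passed the size criterion, as did 20.6% of the 9613 genes with enough cells in this class (13.3% were lower), but neither interval excluded equal levels. Gas6 (73.6 and 97.7 CPM, 0.41, -0.28 to 1.15) and Pros1 (57.6 and 36.0 CPM, -0.68, -1.58 to 0.26) did not differ beyond counting error either.

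The macrophage-like cluster was mixed. When somatic cells were clustered again, 5 and 5 of its 26 WT cells fell in sub-clusters named elongating spermatid and 9 in one named round spermatid. Of its 80 KO cells, 12, 8 and 19 did. The highest levels of macrophage markers, 43006 CPM in WT and 29115 CPM in KO, were in another sub-cluster with only 6 WT and 32 KO of these cells. That sub-cluster was named spermatogonia, with 8 of 18 spermatogonia and 18 of 20 macrophage markers detected, and no sub-cluster was named macrophage. It also held 46 cells of the KO Leydig-like class. In the whole macrophage-like cluster the median share of germ cell genes was 11.3% in WT and 5.19% in KO. In 2 of 26 WT and 11 of 80 KO cells the markers of stromal or peritubular cells summed to at least as many UMIs as those of macrophages. Gas6 was as high without those cells, at 74.2 CPM in 24 WT and 97.1 CPM in 69 KO cells. In the 7 WT and 39 KO cells with at most 5% germ cell genes, Axl was 47.3 and 45.5 CPM, Mertk 70.9 and 49.3 CPM and Gas6 165 and 156 CPM, on 2, 3 and 7 UMIs in WT, and Pros1, at 142 and 53.1 CPM, passed the criterion (-1.42, -2.89 to 0.25). There 42.9% of 8583 genes were lower in KO and 9.61% higher. Markers of elongating spermatids still summed to 33096 CPM in the 7 WT and 9038 CPM in the 39 KO cells. These cells were thus neither free of germ cell RNA nor alike in it.

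Stromal or peritubular-like cells, which appeared only when somatic cells were clustered again (13 in WT, 87 in KO), carried both ligands as well. Gas6 had 13 UMIs in WT (163 CPM) and 118 in KO (207 CPM), a log2 ratio of 0.34 (-0.49 to 1.29). Pros1 had 8 (101 CPM) and 76 (133 CPM), a ratio of 0.41 (-0.64 to 1.67). Axl had 3 and 11 UMIs, Mertk 0 and 7 and Tyro3 1 and 0. In the first clustering 12 of these WT and 77 of these KO cells had been counted as Leydig-like.

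In germ cells, Pros1 was higher in KO in round spermatid-like cells (3.24 and 5.10 CPM, log2 0.65, 0.28 to 1.04) and within counting error in late spermatocyte-like cells (0.34, -0.04 to 0.72). Gas6 had 2 UMIs in WT and 14 in KO late spermatocyte-like cells (a ratio of 8.37-fold, log2 3.06, 0.94 to 6.25) and 1 and 15 in round spermatid-like cells (17.5-fold, 4.13, 1.43 to 9.53). The summed Leydig markers were higher in KO as well, at 236 and 505 CPM in late spermatocyte-like and 123 and 335 CPM in round spermatid-like cells, and their part in the Gas6 values was not tested. Clustered without integration, the round spermatid-like value of Gas6 was 1.22. The receptors were at the level of a few UMIs in these classes, with at most 7 UMIs per library, and no difference was detectable at this depth apart from Tyro3 in round spermatid-like cells, with 0 UMIs in WT and 5 in KO.

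The balance of receptor to ligand UMIs within a class does not depend on the total of the class. This comparison was added after seeing the data. For the 3 receptors together, each ligand UMI of the Sertoli-like cells was matched by 0.284 receptor UMIs in the WT library (25 receptor and 88 ligand UMIs) and 0.661 in the KO library (650 and 984), which is a log2 ratio of 1.22 (0.64 to 1.86). In the cells with little germ cell RNA it was 0.297 (22 and 74) and 0.655 (586 and 895), a log2 ratio of 1.14 (0.53 to 1.82). The subset held most of the UMIs of the full class, so the values are not independent, and in it Gas6 was lower in KO while Axl and Tyro3 did not differ beyond counting error. In Leydig-like cells the libraries did not differ beyond counting error, with 0.0646 (17 and 263) and 0.0843 (189 and 2243), a log2 ratio of 0.38 (-0.34 to 1.19). In macrophage-like cells it was 0.171 (7 and 41) and 0.433 (45 and 104), a log2 ratio of 1.34 (0.18 to 2.74), and 0.30 (-1.11 to 2.04) in those with little germ cell RNA. Over all cells the balance thus lay further toward the receptors in KO by more than counting error in Sertoli-like and in macrophage-like cells. The single WT cell with 15 UMIs of Pros1 contributes to the WT ligand sum.

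Among Leydig-like, Sertoli-like and macrophage-like cells, ligand and receptor transcripts were found in the same cell most often in KO Sertoli-like cells. Of 474 KO Sertoli-like cells, 236 (49.8%, 45.2% to 54.4%) had a UMI of a ligand and of a receptor, against 44.9% for the product of both shares. The share was 18.0% in WT Sertoli-like cells, 12.9% (WT) and 10.8% (KO) in Leydig-like cells, and 15.4% and 27.5% in macrophage-like cells. Pros1 and Tyro3 occurred together in 123 cells (26.0%, 22.1% to 30.1%), with 101 from the product, Pros1 and Axl in 113 (23.8%, 20.1% to 27.9%), with 90.8, and Gas6 and Axl in 97 (20.5%, 16.9% to 24.4%), with 76.8. For these pairs the interval lay above the product. It included the product for Gas6 with Tyro3 (93 cells, 85.1 from the product), Gas6 with Mertk (53, 52.2) and Pros1 with Mertk (63, 61.8).

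In the 377 KO cells with little germ cell RNA, any ligand and any receptor occurred together in 214 cells (56.8%), against 213.9 from the product. Gas6 with Axl occurred in 88 (23.3%, 19.2% to 27.9%) against 78.9 (20.9%), and both intervals included the product. Among KO Leydig-like cells, Gas6 and Mertk were together in 68 of 1172 cells (5.80%, 4.53% to 7.30%), with 65.0 from the product. At least 2 receptors were detected in 144 of the KO Sertoli-like cells (30.4%) and in 4 of the KO Leydig-like cells (0.341%).

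**Figure D5:**
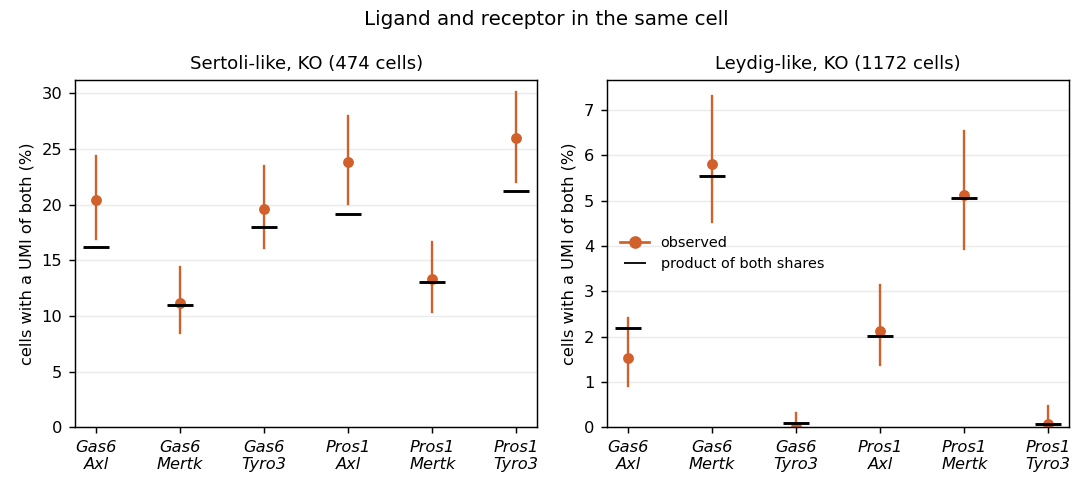
Share of KO cells (vertical axis, percent, from 0) with a UMI of a ligand (upper name) and of a receptor (lower name) in Sertoli-like (left) and Leydig-like cells (right), with exact Clopper-Pearson 95% intervals (orange) and the product of the shares of cells with each (black bars); the panels differ in scale. In Sertoli-like cells Pros1 with Tyro3 reached 26.0% and in Leydig-like cells Gas6 with Mertk 5.80%.

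The wider machinery was followed in 81 genes of 5 lists: other receptors and bridging molecules of dead cell uptake, engulfment and digestion, signals of dead and living cells, ligand carboxylation and receptor shedding, and receptor signalling and feedback. Of the 24 other receptors and bridging molecules, 22 had at least 10 UMIs in KO, and 7 of them were highest in macrophage-like, 6 in Sertoli-like and 2 in Leydig-like cells. In WT, 21 had at least 10 UMIs, of which 9 were highest in macrophage-like, 4 in Leydig-like and 2 in Sertoli-like cells. The few endothelial-like cells were left out of these orders of classes. Orders and levels in this paragraph are over all cells. Germ cell genes made up a median of 7.98% of the UMIs of WT and 1.31% of KO Sertoli-like cells, so they are not matched between the libraries. The complement genes C1qa, C1qb and C1qc, whose products coat dying cells, were at 337, 1105 and 1037 CPM in KO macrophage-like cells. Mfge8, which bridges phosphatidylserine to integrins, was highest in Sertoli-like cells (89.3 CPM in WT, 337 CPM in KO), with 329 CPM in the 24 KO endothelial-like cells, and Cd36, a scavenger receptor, in Leydig-like cells (609 and 694 CPM). Of the enzymes that the ligands need to become active, Vkorc1, the vitamin K epoxide reductase, was highest in Leydig-like cells (95.7 and 85.9 CPM), and Ggcx, the gamma-glutamyl carboxylase, was highest in spermatogonia-like cells, at 7.10 and 5.83 CPM, with 12.7 CPM in the KO endothelial-like cells. Adam10, a protease that sheds TAM receptors, was 35.3 and 99.97 CPM in Sertoli-like cells and 158 CPM in the KO endothelial-like cells. Adam17, a related protease, was 35.2 CPM in Sertoli-like and 34.8 CPM in spermatogonia-like cells of the KO library.

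In Leydig-like cells, 36 of the 81 genes had a UMI in at least 10% of cells, and 3 of them were higher and 4 lower in KO by the 2-fold criterion, against 3.25% and 10.3% of all 7235 genes with enough cells. The median log2 ratio was -0.08 over the lists and -0.09 over all genes. Socs3, a feedback inhibitor of cytokine signalling that TAM receptors are known to induce, was 96.7 CPM in WT and 314 CPM in KO (log2 1.70, 1.41 to 2.00). No other of the 8 receptor signalling and feedback genes with enough cells passed the criterion, and the median log2 of these 8 was -0.15. Cd24a, a surface signal of living cells, was 29.3 and 76.3 CPM and Cd14, a receptor for endotoxin and dying cells, 25.4 and 66.5 CPM. Scarb1, the HDL receptor, which also binds phosphatidylserine, was lower in KO, at 191 and 78.9 CPM (-1.27, -1.50 to -1.04), as were the integrin subunits Itgav and Itgb5 and the lysosomal nuclease Dnase2a (34.2 and 16.0 CPM).

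Among the 38 list genes with enough Sertoli-like cells, 24 passed as higher in KO and 1, C1qb, as lower over all cells, where the criterion called 40.6% and 18.0% of all genes. The median log2 ratio was 1.49 over the lists and 0.76 over all genes. In the cells with little germ cell RNA, 11 of 37 were higher and 4 lower, against 12.4% and 13.4% of all genes, with a median of 0.27 over the lists. Of the 11, Grb2, the adaptor that binds activated receptor kinases, was 55.8 CPM in WT and 112 CPM in KO (1.007, 0.01 to 2.23), and for the other 10 the interval included equal levels on 1 or 2 UMIs in WT. Dnase2a was lower there too, at 62.8 and 23.6 CPM (-1.41, -2.40 to -0.24).

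In macrophage-like cells, 6 of 46 genes were higher and 4 lower, against 20.6% and 13.3% of all genes, and Mfge8 was 12.8 and 83.5 CPM (log2 2.71, 1.28 to 4.63). In the cells with at most 5% germ cell genes, 6 of 47 were higher and 18 lower, against 9.61% and 42.9%. In spermatogonia-like cells, of 27 genes only Dock5, an activator of Rac in engulfment, passed (10.6 and 22.5 CPM), against 1.59% of all genes higher and 4.69% lower.

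Over the clusters with at least 20 cells in a library (33 values of log2(CPM + 1)), the genes most like each member were listed by Pearson's r, as a description, since clusters share their libraries and the split into somatic and germ cells. Tyro3 was nearest to Sh3gl2 (r = 0.90), Akap17b (0.89) and Scrn2 (0.88), genes that were high in Sertoli-like cells, with Sh3gl2 at 146 CPM in KO. Axl was nearest to Marcks (0.85), to Gas6 (0.85) and to Mylk (0.84), and Mertk to Vim (0.96), Junb (0.96) and Anxa5 (0.95), whose product binds the same phosphatidylserine as the ligands. Gas6 was nearest to Cd302 (0.97), Hist1h2bc (0.97) and Mbnl1 (0.96), and Pros1 to Ctso (0.94), Ak3 (0.94) and Sptssa (0.93). Among the members themselves, Mertk and Gas6 (0.93) were most alike and Tyro3 and Pros1 (0.37) least.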

How the data were processed

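Single-cell RNA-seq of testis was measured in 1 WT and 1 KO library. The authors deposited raw UMI counts per gene and barcode: reads were filtered for poly(T), trimmed, aligned and assigned to genes, and reads sharing barcode, UMI and gene were counted as 1 molecule (the submitters' processing notes list featureCounts 1.6.2, STAR 2.5.3a and fastp). The methods name a human build, while the tables hold mouse symbols, of which 35502 of 36547 are in GENCODE, so the build used for alignment is uncertain. The tables held only cells with over 500 genes and at least 4792 UMIs per cell, which bounds the precision for genes of a few CPM.

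Cells were clustered with Seurat 5.3.0 in R 4.3.3 (2000 variable features without the 5 members, integration with 20 anchor dimensions, 30 principal components, resolution 0.3), giving 17 clusters. Each was named from 196 marker genes. Scrublet (scanpy 1.11.5) called 243 WT and 348 KO doublets, which were kept and were left out in an alternative. Counts were summed per class and library and expressed per 1000000 UMIs (CPM). Intervals at 95% were exact and computed with scipy 1.17.1. They recovered ratios simulated as Poisson sums, which hold no spread between cells, so this checks the computation and not the width in these data. Zeros were set to a floor of 3 counts in ratios for the size criterion. For shares, cells were thinned to 5000 UMIs, leaving out 241 KO and 0 WT cells below it.

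Members, gene lists and markers were chosen with earlier results of these data known. Named genes were the members, Alkbh5, list genes, with values for those past the size criterion, and the 3 genes most like each member among those with at least 100 UMIs in each library; list genes given by class level alone, the overlapping genes and leading genes of clusters were named after their values were seen. Values restricted to cells with at most 5% germ cell genes, and the second clustering of somatic cells (20 principal components, resolution 0.8), were added after seeing the data. The balance of receptor to ligand UMIs was added after seeing the data as well. The list result for Leydig-like cells with at most 5% germ cell genes is not reported here.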

Additional observations from a re-analysis of the deposited data

Results flagged for a closer look

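The ratio of Pros1 went in opposite directions in cell classes of the same libraries: the log2 ratio of KO over WT was 0.79 and -0.34 in Sertoli-like and Leydig-like cells, and 0.65 and -0.34 in round spermatid-like and Leydig-like cells, each with a counting interval that excluded 0. With 1 library per genotype the difference between classes was not tested. The Sertoli-like value was -0.50 in the cells with at most 5% germ cell genes, and 15 of the 29 WT UMIs of that class came from a single cell, while the Leydig-like value was -0.46 in the same subset.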

How the results depend on the processing

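No paired analysis was possible because each genotype had 1 library. Restricting to at most 5% germ cell genes moved or reversed values as follows: in Sertoli-like cells the log2 ratio of KO over WT became -0.20 for Axl, -0.13 for Tyro3 and -0.50 for Pros1, all reversed, and -1.48 for Gas6, and that of Mertk in macrophage-like cells became -0.52. Shares of Sertoli-like cells with a UMI became 46.7% (WT) and 42.2% (KO) for Axl, 40% and 46.4% for Tyro3 and 58.9% (KO) for Pros1. List genes higher and lower in KO became 11 and 4 in Sertoli-like cells, and 18 were lower in macrophage-like cells. Clustering somatic cells again gave -0.20, -0.12, -0.48 and -1.46 for Axl, Tyro3, Pros1 and Gas6 in Sertoli-like and -0.63 for Pros1 in Leydig-like cells, with shares of 46.7% and 42.3% for Axl, 40% and 46.6% for Tyro3, 59.3% (KO Sertoli-like) and 77.3% (WT Leydig-like) for Pros1. Both subsets hold fewer cells.

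Thinning to 5000 UMIs lowers shares by construction: 6.00% and 21.9% for Axl (Sertoli-like, WT and KO), 24.95% for Tyro3 (Sertoli-like, KO), 10.53% for Mertk (macrophage-like, KO), 46.2% and 39.2% for Gas6 (Leydig-like), 40.9% (Leydig-like, WT) and 36.6% (Sertoli-like, KO) for Pros1, 1.6% for Gas6 with Mertk in Leydig-like, 9.25% for Gas6 with Axl and 11.2% for Pros1 with Tyro3 in Sertoli-like KO cells. Without mitochondrial and ribosomal protein genes, KO levels became 61.4 (Axl), 66.7 (Tyro3) and 125 CPM (Pros1) in Sertoli-like cells and 153 CPM (Gas6) in Leydig-like cells. At resolution 0.8, 13.3% of KO macrophage-like cells had Mertk, and Leydig-like cells held 55.5% (WT) and 62.0% (KO) of Gas6 and 48.8% (KO) of Pros1 UMIs. With a 25% minimum of cells, list genes lower in KO were 2 in Leydig-like cells, 12 were higher in Sertoli-like cells, and 3 higher and 1 lower in macrophage-like cells; with a ratio of 1.5, 7 were lower in Leydig-like, and 18 higher and 9 lower in macrophage-like cells; without germ cell genes in the totals, 3 were higher in macrophage-like cells. Without integration, Gas6 in round spermatid-like cells went from 4.13 to 1.22. The cause of these shifts beyond the stated construction was not tested. Removing doublets, requiring 1000 genes per cell, keeping the members among the variable features and averaging single cells moved none of the 41, 42, 42 and 32 values compared. The WT values low in germ cell RNA rest on 15 Sertoli-like and 7 macrophage-like cells.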
